A study of Saccharomyces cerevisiae with 137 samples.

Results

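The YAP family of budding yeast (Saccharomyces cerevisiae) is a set of basic leucine zipper (bZIP) transcription factors, and 7 of its genes were taken by name from the 6178 rows of the values table: YAP1 (YML007W), CAD1 (YDR423C, also called YAP2), YAP3 (YHL009C), CIN5 (YOR028C, also called YAP4), YAP5 (YIR018W), YAP6 (YDR259C) and YAP7 (YOL028C). Cultures were moved from 30 °C to 13 °C and sampled at 15, 30 and 60 min (t15, t30, t60), then returned to 30 °C and sampled 30 and 60 min later (t90, t120). Each of 137 two-channel arrays set one such sample against the t0 sample of its own flask, taken before the shift. The value per array is a score made by the authors, a log ratio of shifted sample to t0 scaled so that 1 unit is the array's own spread. It is not a fold, and its log base is not stated. A positive score is read as higher after the shift, on the strength of the sample titles.

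The deletion strains were delCIN5, delGLN3, delHAP4, delHMO1, delSWI4 and delZAP1, each BY4741 without the named transcription factor gene and each grown in YEPD rich medium with 200 µg/mL of the antibiotic G418. The wild type was grown in YEPD without G418, and was BY4741 except flask 0, which was BY4739. In every deletion strain the t0 sample came from the same deleted strain and the same medium as the shifted samples, so delCIN5 lacked CIN5 in both channels. In a comparison with wild type the deletion and G418 cannot be told apart. All wild-type arrays were on slides with a polymer coating, while all of delHAP4 and flasks 2 to 4 of delSWI4 were on slides without it. Against wild type, slide coating therefore cannot be told apart from the deletion in delHAP4 either. Wild-type flasks 0 and 1 (9 arrays) were on chips of the GCAT source, and all other arrays on chips of the Ontario source. The labels do not distinguish isolates of a deletion strain. There were 20 arrays each from delCIN5, delGLN3, delHMO1 and delZAP1, 18 from delHAP4, 16 from delSWI4 and 23 from wild type, made from 30 flasks (4 per deletion strain, 5 for delGLN3 and 5 for wild type). Flasks were grown in pairs, a pair to a day, but the labels do not say which flasks made a pair. Equal masses of labelled RNA were compared on an array, so a score is relative to the other transcripts, and a change in RNA per cell cannot be told apart from it.

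Yap proteins bind short DNA sites through a basic region next to a leucine zipper, and most activate genes for detoxification and stress tolerance. YAP1 encodes the main regulator of the response to peroxides, which gathers in the nucleus when it is oxidised, and CAD1 encodes its close relative, linked to cadmium tolerance. CIN5 and YAP6 form another pair of relatives, linked to salt and osmotic stress and able to recruit the Tup1-Cyc8 corepressor. YAP5 encodes the factor that activates iron storage and iron-sulphur genes when iron is high, and its relative YAP7 encodes a repressor of the nitric oxide detoxification gene YHB1. YAP3 is less well characterised.

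Arrays measured between 5041 and 6158 rows, and the members lacked 29 of 959 possible values. Most of the gap lay in CAD1, which was missing on 17 of the 30 slides without a polymer coating (all of delHAP4 and flasks 2 to 4 of delSWI4) and on 2 of the 107 coated ones. CAD1 could therefore not be tested in delHAP4, nor in cold in delSWI4. On 4 arrays the profile over all genes resembled the other phase of the experiment, with a rank correlation below 0 to its own phase and above 0.1 to the other. They were delGLN3 t60 flask 2, delHAP4 t90 flask 4, and delHMO1 t60 and t90 flask 3. The delGLN3 t120 array of flask 1 correlated at −0.035 with its own phase and 0.009 with the other, and was not among the 4. In delHMO1 the t15 arrays of flasks 3 and 4 correlated at r = −0.476 over all genes. Where a call below changes without the 4 arrays, both values are given.

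The deleted gene was read first. In delCIN5 the CIN5 probe scored between −0.69 and 0.60 on every measured array but flask 3 at t120, which scored 2.11. Since both channels lacked the gene, these ratios do not show whether the transcript was absent, and the CIN5 score was not interpreted in that strain. In the other strains CIN5 reached scores as high as 5.13.

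In wild type, CIN5 and YAP1 rose and CAD1 fell in the cold, and YAP6 rose after rewarming. YAP1 scored 2.19, 1.70, 0.55 and 1.44 at t15 (flasks 1 to 4), 1.88, 0.91, 1.02 and 0.90 at t30 (flasks 0, 2, 3 and 4) and 2.20, 1.71, 1.40 and 0.84 at t60 (flasks 0 to 3). All 12 values in the cold were above 0. At t90 YAP1 scored −0.06, −0.97, −0.52 and −2.08 in flasks 0, 2, 3 and 4, so that every measured flask was below its own values in the cold. At t120 the flasks lay on both sides of 0, from −1.26 to 1.07. The limma estimates for YAP1 were 1.59 at t15 (SE 0.38, adjusted p = 0.0066), 1.19 at t30 (SE 0.38, adjusted p = 0.032) and 1.51 at t60 (SE 0.38, adjusted p = 0.007).

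CAD1 moved in the other direction. It scored −1.58, −2.34, −0.24, −1.62 and −0.66 at t30 (flasks 0 to 4) and −1.70, −1.85, −1.08 and −0.95 at t60 (flasks 0 to 3), all below 0. At t120 the 5 flasks spread from −0.52 to 1.02. The estimate was −1.29 at t30 (SE 0.29, adjusted p = 0.0032) and −1.33 at t60 (SE 0.32, adjusted p = 0.0051).

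CIN5 passed in wild type at t60 and not before. At t15 it scored −0.14, −0.10, 1.24 and 1.39 (flasks 1 to 4), at t30 −0.42, 0.55, 1.03, 1.23 and 2.22 (flasks 0 to 4), and at t60 2.18, 0.84, 2.47 and 1.48 (flasks 0 to 3). Flasks 1 and 2 were below 0 at t15, flask 0 was below 0 at t30, and no flask was below 0 at t60. Its t60 estimate was 1.90 (SE 0.46, adjusted p = 0.0054), and the estimates of 0.62 at t15 (SE 0.46) and 0.92 at t30 (SE 0.42) did not pass. In recovery the flasks parted, with 0.90, −2.02, −1.45, −0.02 and 0.55 at t90.

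YAP6, the relative of CIN5, scored below 0 on every wild-type array in the cold, between −1.24 and −0.17, and no cold estimate passed. At t90 its 5 flasks scored 0.84, 0.70, 1.03, 1.15 and 0.74, and the estimate was 0.89 (SE 0.26, adjusted p = 0.041). At t120 it had spread to between −0.31 and 1.19. YAP3, YAP5 and YAP7 passed at no time in wild type, with estimates between −0.66 and 0.85.

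**Figure D1:**
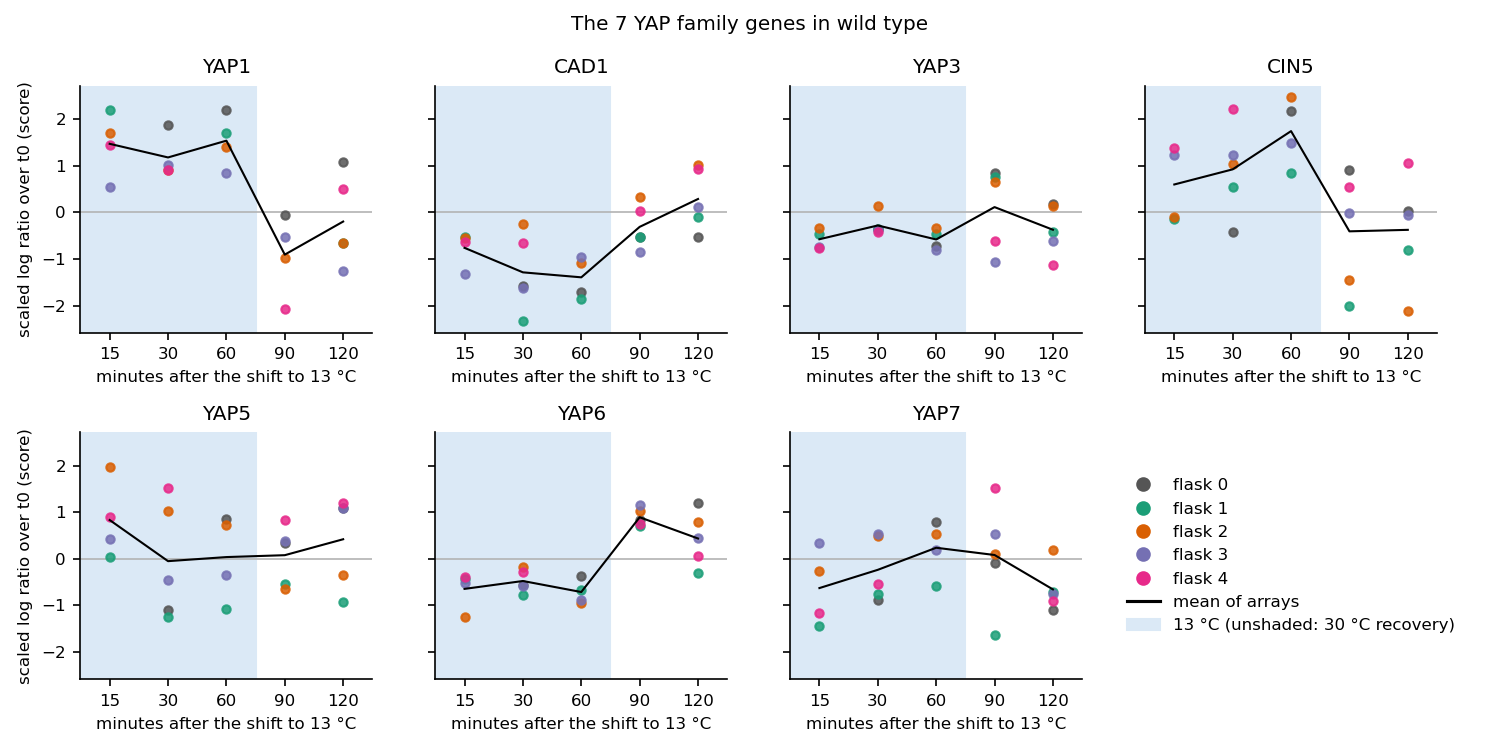
Scores of the 7 YAP family genes on each wild-type array (y axis, scaled log ratio over t0) at each sampling time (x axis, minutes, evenly spaced), coloured by flask, with the mean of the arrays as a line and the 13 °C phase shaded. All YAP1 points in the cold lie above 0 and all CAD1 and YAP6 points below it, CIN5 has its highest mean at t60, and YAP6 is between 0.70 and 1.15 at t90.

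Over the 5 times, 7 of 35 tests of a member passed, 5 higher and 2 lower. At t15 1 of 7 members passed, with 10.8% of all rows called. At t30 it was 2 of 7 against 15.1%, at t60 3 of 7 against 15.7% and at t90 1 of 7 against 5.6%. None passed at t120 in limma, where 2.69% of rows were called and no member had an unadjusted p below 0.05. YAP6 at t90 lost its call without any 1 of the 5 flasks (0.83 to 0.94, adjusted p from 0.071 to 0.19), and YAP1 lost it without flask 2 at t15 (1.55, adjusted p = 0.067) and t60 (1.53, adjusted p = 0.05 as rounded) and without flask 0, 1, 2 or 3 at t30 (1.00 to 1.28, adjusted p from 0.051 to 0.13). On the chips of the Ontario source alone, which leaves out flasks 0 and 1, CIN5 at t60 was the 1 call left, while YAP1 gave 1.23, 0.94 and 1.14 at t15, t30 and t60 (adjusted p = 0.077, 0.17 and 0.19) and CAD1 gave −0.84 and −0.96 at t30 and t60 (adjusted p = 0.12 and 0.17).

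The deletion strains were tested as the mean of t30 and t60 (cold) and the mean of t90 and t120 (recovery) against t0. CIN5 rose in the cold in 4 of the 5 strains that keep it. In delHAP4 it scored 1.05, 1.94, 2.00 and 1.95 at t30 and 2.87, 3.26, 2.25 and 1.92 at t60 (flasks 1 to 4), and in delZAP1 1.76, 2.60, 0.87 and 2.43 at t30 and 1.57, 3.75, 2.38 and 2.67 at t60 (flasks 2 to 5). Every one of these arrays was above 0. The cold estimates in limma were 2.15 in delHAP4 (SE 0.40, adjusted p = 0.00068), 2.25 in delZAP1 (SE 0.53, adjusted p = 0.0042), 1.90 in delGLN3 (SE 0.50, adjusted p = 0.012) and 1.11 in delSWI4 (SE 0.41, adjusted p = 0.045). In delHMO1 CIN5 averaged 1.00 ± 0.38 (SD of flask means, n = 4), which did not pass (SE 0.41, adjusted p = 0.22), and without the 2 delHMO1 arrays that resembled the other phase it did (1.38, adjusted p = 0.013).

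**Figure D2:**
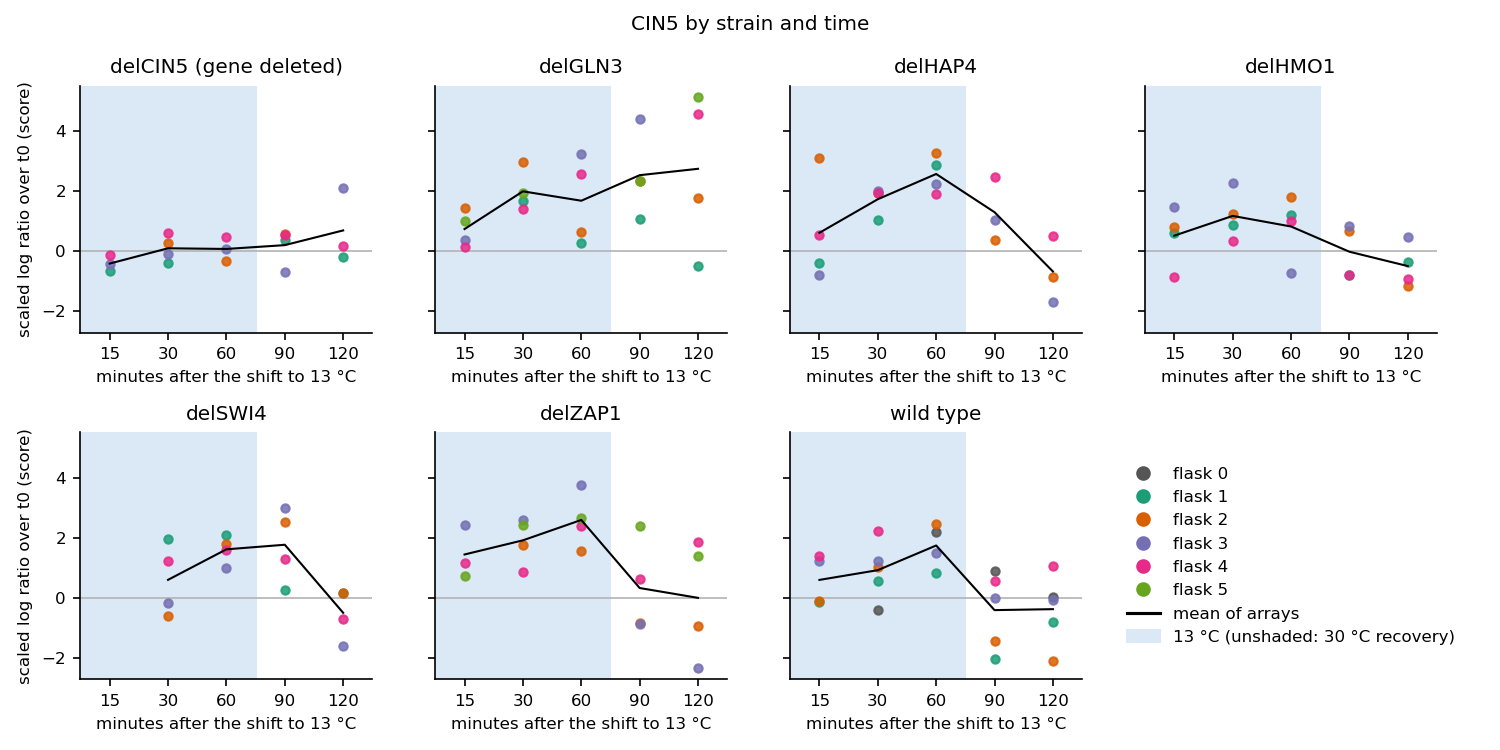
CIN5 score on each array (y axis, scaled log ratio over t0) by time (x axis, minutes, evenly spaced) in the 6 deletion strains and in wild type, coloured by flask, with the mean of the arrays as a line and 13 °C shaded. The t60 arrays lie above 0 in delGLN3, delHAP4, delSWI4, delZAP1 and wild type, and only in delGLN3 do the means at t90 and t120 stay above 2.

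YAP1 rose in the cold in 3 strains, delGLN3 (1.03, SE 0.31, adjusted p = 0.025), delHAP4 (0.72, SE 0.26, adjusted p = 0.043) and delZAP1 (1.28, SE 0.42, adjusted p = 0.031). In delSWI4 the estimate was 0.52 (SE 0.23) and in delHMO1 0.45 (SE 0.32), and neither passed. In delCIN5 YAP1 scored −0.79, 0.80, −0.64 and 0.44 at t30 (flasks 1 to 4) and 0.56, −1.18 and −0.33 at t60 (flasks 1, 3 and 4). These 7 arrays lay on both sides of 0, and the estimate was −0.12 (SE 0.38, adjusted p = 0.87).

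CAD1 fell in the cold in delCIN5, delGLN3 and delZAP1. In delCIN5 it scored −1.47, −1.21, −0.73 and −1.55 at t30 and −0.90, −0.94, −0.91 and −1.60 at t60 (flasks 1 to 4), all below 0, for an estimate of −1.16 (SE 0.22, adjusted p = 0.0017). The estimates were −0.94 in delGLN3 (SE 0.31, adjusted p = 0.041) and −1.26 in delZAP1 (SE 0.28, adjusted p = 0.0026). In delHMO1 CAD1 lay near 0, at −0.02 ± 0.50 (SD of flask means, n = 4). The 2 flasks of delHAP4 with a cold value, not tested, had 1 array each, at −1.53 (flask 1, t60) and −1.24 (flask 4, t30). The 3 flasks of delSWI4, not tested either, were at 0.30 and 0.36 (flasks 1 and 2, t60 only) and −0.84 (flask 3, both times). Thus 2 of those 3 lay above 0, but the 1 delSWI4 array with a value at t30 was at −1.02. These values mix times and are not like the cold means of the other strains.

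In recovery YAP6 rose in 5 of the 6 deletion strains. In delGLN3 it scored 2.00, −0.09, 2.54 and 0.94 at t90 (flasks 1, 2, 3 and 5) and 1.17, 0.88, 3.62 and 4.94 at t120 (flasks 1, 2, 4 and 5), so that 7 of 8 arrays were above 0. The estimates in limma were 2.01 in delGLN3 (SE 0.38, adjusted p = 0.0067), 1.39 in delHAP4 (SE 0.36, adjusted p = 0.047), 1.20 in delZAP1 (SE 0.34, adjusted p = 0.042), 1.16 in delCIN5 (SE 0.32, adjusted p = 0.045) and 1.07 in delSWI4 (SE 0.31, adjusted p = 0.022). In delHMO1 it averaged −0.37 ± 0.51 (SD of flask means, n = 4) and did not pass.

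Of the deletion strains, delGLN3 was the one where CIN5 passed in recovery (2.69, SE 0.50, adjusted p = 0.0061). YAP5, the iron-responsive factor, fell in recovery in delZAP1, where it scored −0.49, −1.16, −0.83 and −2.16 at t90 and −0.93, −1.21, −1.63 and −1.18 at t120 (flasks 2 to 5), every array below 0, for −1.20 (SE 0.29, adjusted p = 0.015). Every recovery array was also below 0 in delHMO1 (flask means −1.32 ± 0.25, SD, n = 4) and in delCIN5 (−0.63 ± 0.38, SD, n = 4). YAP5 passed in recovery in neither of these strains. YAP5 rose in the cold in delHAP4 (0.92, SE 0.28, adjusted p = 0.018). YAP3 and YAP7 passed in no deletion strain against t0.

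In all, 18 of 79 such tests passed, 14 higher and 4 lower. In the cold the members called were 1 of 6 in delCIN5 (15.1% of all rows called), 3 of 7 in delGLN3 (19.3%), 3 of 6 in delHAP4 (31.4%), 0 of 7 in delHMO1 (0.33%), 1 of 6 in delSWI4 (29.4%) and 3 of 7 in delZAP1 (24%). In recovery they were 1 of 6 in delCIN5 (4.38%), 2 of 7 in delGLN3 (3.9%), 1 of 6 in delHAP4 (2.25%), 0 of 7 in delHMO1 (0.033%), 1 of 7 in delSWI4 (14.7%) and 2 of 7 in delZAP1 (6.18%). In delHMO1, where limma called none, CIN5 and YAP6 in the cold and YAP5 in recovery had an unadjusted p below 0.05. CIN5 in the cold in delHAP4 and delZAP1 and CAD1 in the cold in delZAP1 kept their calls without any 1 flask. Every other call was lost without at least 1 flask of its strain, and the 5 YAP6 calls in recovery gave 0.85 to 1.85 where they were lost (adjusted p from 0.056 to 0.38). With a term for slide coating YAP6 in delSWI4 gave 0.73 (adjusted p = 0.13) and CIN5 in the cold in delSWI4 gave 1.19 (adjusted p = 0.053).

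The difference between recovery and cold was tested within each strain. The t0 sample drops out for a flask measured in both phases in full, but some flasks lack a time or a phase (delHAP4 flask 1 has no recovery array, and flasks differ between times in delGLN3 and wild type), so that differences between flasks enter the estimates in part. For CIN5 in delGLN3, for example, the estimate was 0.79 and the mean of the within-flask differences 1.02. In wild type YAP1 and CIN5 fell and CAD1 and YAP6 rose from cold to recovery. The YAP1 flask means were −0.53 ± 0.58 in recovery and 1.35 ± 0.51 in the cold (SD, n = 5), and every flask was lower in recovery. The difference was −1.90 (SE 0.32, adjusted p = 5.9e-05) for YAP1, −1.80 (SE 0.38, adjusted p = 0.00047) for CIN5, 1.30 (SE 0.26, adjusted p = 0.00032) for CAD1 and 1.26 (SE 0.23, adjusted p = 0.00012) for YAP6 in limma. None of the 4 calls was lost under any alternative that could be run.

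Among the deletion strains YAP6 rose in 5 of 6: 1.53 in delCIN5 (SE 0.34, adjusted p = 0.0024), 2.21 in delGLN3 (SE 0.50, adjusted p = 0.0039), 1.66 in delHAP4 (SE 0.40, adjusted p = 0.0038), 1.59 in delSWI4 (SE 0.32, adjusted p = 0.00053) and 1.54 in delZAP1 (SE 0.36, adjusted p = 0.0024). Over all strains 27 of 29 flasks were higher in recovery, and the other 2 belonged to delHMO1. YAP1 fell in delGLN3 (−1.16, SE 0.40, adjusted p = 0.044), delHAP4 (−1.21, SE 0.33, adjusted p = 0.0094), delSWI4 (−0.91, SE 0.24, adjusted p = 0.0049) and delZAP1 (−1.63, SE 0.44, adjusted p = 0.0072). Its difference was −0.10 in delCIN5 (SE 0.38, 95% interval −0.90 to 0.70) and −0.00 in delHMO1 (SE 0.30, 95% interval −0.63 to 0.62), where 2 of 4 flasks went each way in either strain.

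YAP5 fell in delHAP4 (−1.62, SE 0.35, adjusted p = 0.002), delZAP1 (−1.81, SE 0.31, adjusted p = 0.00011) and delSWI4, where it fell by 1.00 (SE 0.28, adjusted p = 0.0078). It was lower in recovery in all 4 flasks of delCIN5 (−0.86, adjusted p = 0.061) and of delHMO1 (−1.32, adjusted p = 0.051), neither of which passed. Wild type differed by 0.20 (SE 0.36, 95% interval −0.53 to 0.94), with 3 of 5 flasks higher. CAD1 rose in delCIN5 (1.07, SE 0.23, adjusted p = 0.0014) and delZAP1 (1.80, SE 0.30, adjusted p = 8.8e-05), and 23 of the 25 flasks that could be read were higher in recovery. The other 2 were both flasks of delSWI4 that could be read, and each lacked a CAD1 value at a recovery time.

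CIN5 fell in delHAP4 (−1.91, SE 0.51, adjusted p = 0.0075) and delZAP1 (−2.09, SE 0.56, adjusted p = 0.0067). In delGLN3 its difference was 0.79 (SE 0.65, 95% interval −0.56 to 2.14), with 4 of 5 flasks higher in recovery, and in delSWI4 −0.47 (SE 0.42, 95% interval −1.36 to 0.41), with 2 of 4 flasks higher. YAP7 fell in delSWI4 (−0.84, SE 0.30, adjusted p = 0.028) and was lower in recovery in 21 of 29 flasks over all strains. YAP3 passed in no strain, with differences between 0.22 and 0.65, and was higher in recovery in 21 of 29 flasks.

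**Figure D3:**
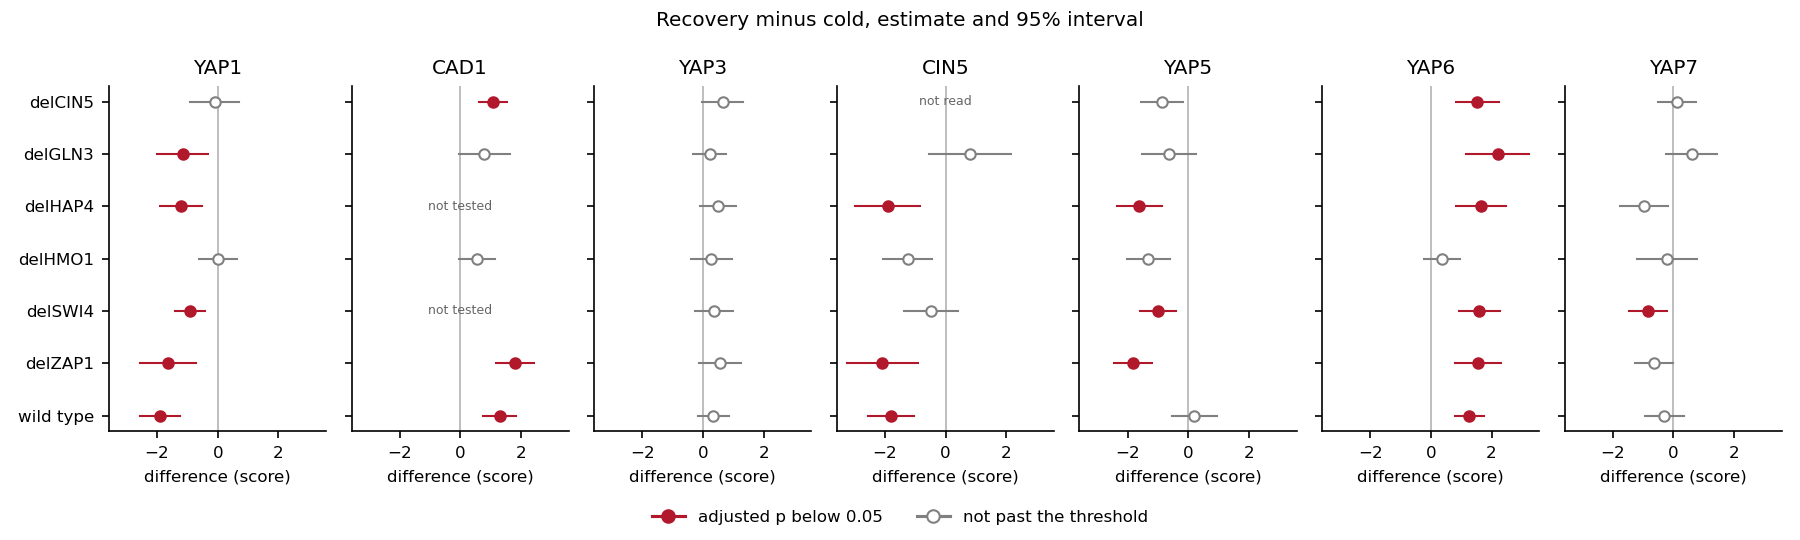
Estimated difference between recovery (mean of t90 and t120) and cold (mean of t30 and t60) in score units (x axis) for each member and strain (y axis, wild type at the bottom), with 95% intervals; filled red points passed an adjusted p of 0.05. YAP6 lies right of 0 in every strain, YAP1 lies left of 0 except near 0 in delCIN5 and delHMO1, and YAP5 lies left of 0 in every deletion strain but not in wild type.

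Of 46 such tests 21 passed, 9 higher and 12 lower. The members called were 2 of 6 in delCIN5 (28.1% of all rows called), 2 of 7 in delGLN3 (20.8%), 4 of 6 in delHAP4 (31.7%), 0 of 7 in delHMO1 (1.61%), 4 of 6 in delSWI4 (42.8%), 5 of 7 in delZAP1 (34%) and 4 of 7 in wild type (37.4%). In delHMO1, with no call in limma, CIN5 and YAP5 had an unadjusted p below 0.05, and without its 2 arrays that resembled the other phase both passed (CIN5 −1.65, adjusted p = 0.00053, against −1.25 and 0.074 with them, and YAP5 −1.50, adjusted p = 0.0035, against −1.32 and 0.051 with them). Without the corresponding delGLN3 array CAD1 passed there too (1.06, adjusted p = 0.043, against 0.79 and 0.19 with it). Among the deletion strains, CAD1 in delCIN5 and delZAP1, YAP5 in delHAP4 and delZAP1, YAP6 in delSWI4 and delZAP1 and YAP1 in delZAP1 kept their calls without any 1 flask, while the other 10 lost theirs without at least 1, among them YAP6 in delCIN5 without flask 3 (1.06, adjusted p = 0.056), YAP6 in delGLN3 without flask 4 (1.89, adjusted p = 0.06) and CIN5 in delZAP1 without flask 3 (−1.20, adjusted p = 0.096).

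The deletion strains were then set against wild type at t15, in the cold and in recovery, which share the wild-type arrays among all strains. Of 112 tests 1 passed: CIN5 in recovery was higher in delGLN3. At t90 it scored 1.08, 2.33, 4.40 and 2.33 in delGLN3 (flasks 1, 2, 3 and 5), against 0.90, −2.02, −1.45, −0.02 and 0.55 in wild type (flasks 0 to 4). At t120 it scored −0.48, 1.78, 4.56 and 5.13 in delGLN3 (flasks 1, 2, 4 and 5), against 0.03, −0.80, −2.11, −0.06 and 1.06 in wild type, where flask 1 of delGLN3 lay within the wild-type range. The difference was 3.11 (SE 0.60, 95% interval 1.89 to 4.33, adjusted p = 0.0067), with 1 of 7 members and 0.848% of all rows called. The call was lost without delGLN3 flask 5 (2.79, adjusted p = 0.052) and on the Ontario chips alone (3.05, adjusted p = 0.051).

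Ordered by flask means in recovery, CIN5 was highest in delGLN3 at 3.01 ± 1.81 (SD, n = 5), followed by delSWI4 at 0.64 ± 0.52, delHAP4 at 0.32 ± 1.02 (n = 3), delZAP1 at 0.16 ± 1.67, delHMO1 at −0.25 ± 0.66 (n = 4 each unless given) and wild type at −0.39 ± 1.15 (n = 5). The gap of 2.37 below delGLN3 exceeded the larger SD of that pair, and no other neighbours in the order differed beyond theirs. In the cold the order was delZAP1 (2.25), delHAP4 (2.15), delGLN3 (1.99), wild type (1.38), delSWI4 (1.11) and delHMO1 (1.00), and no neighbours differed beyond their spread. YAP6 was also highest in delGLN3 in recovery, at 2.21 ± 1.26 (SD, n = 5) against 0.66 ± 0.35 in wild type (SD, n = 5). The limma difference, fitted on the means of each time and not on the flask means, was 1.35 (SE 0.43, 95% interval 0.48 to 2.22, adjusted p = 0.15). It passed without delGLN3 flask 2 (1.87, adjusted p = 0.02).

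The comparison of delCIN5 with wild type asks whether the other members responded differently to the shift without CIN5, and no member passed. Levels that already differed at t0 are not seen in it, since each score is relative to the t0 sample of its own strain. The largest difference was in YAP1 in the cold. Its flask means were −0.04 ± 0.70 in delCIN5 (SD, n = 4) and 1.35 ± 0.51 in wild type (SD, n = 5). At t30 the highest delCIN5 array was 0.80 and the lowest wild-type array 0.90, and at t60 they were 0.56 and 0.84, so that the strains did not overlap at either time. Of all rows compared, 11 of 6126 (0.18%) lay below wild type without overlap at both times. The limma difference was −1.47 (SE 0.47, 95% interval −2.43 to −0.51, adjusted p = 0.6). No row of the 6126 was called in that comparison (0%), and YAP1 was the 1 of 6 members with an unadjusted p below 0.05.

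At t15 the YAP1 difference was −0.79 (SE 0.62, 95% interval −2.04 to 0.45) and in recovery 0.33 (SE 0.45, 95% interval −0.59 to 1.24). There no member of 6 passed in limma or had an unadjusted p below 0.05, with 0.0163% of rows called at t15 and 0.0649% in recovery. The intervals of the other 5 members in the cold all included 0, the widest being YAP5 (0.17, 95% interval −0.79 to 1.14). For YAP6, the closest relative of the deleted gene, they ran from −0.53 to 0.98 in the cold and from −0.23 to 1.22 in recovery.

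delCIN5 was also set against the mean of the other 5 deletion strains, all grown in G418. YAP1 in the cold gave −0.92 (SE 0.38, 95% interval −1.67 to −0.16, adjusted p = 0.66), with an unadjusted p below 0.05 for 1 of 5 members in the cold and 0 of 5 in recovery. Of 10 tests none passed in limma, with 0.0172% of rows called in the cold and 0.0176% in recovery. In the order of YAP1 flask means in the cold delCIN5 was last (−0.04), below delHMO1 (0.45), delSWI4 (0.52), delHAP4 (0.72), delGLN3 (0.97), delZAP1 (1.28) and wild type (1.35), and no neighbours differed beyond the larger SD of the pair.

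In the other strains no member passed against wild type in limma. The share of all rows called was 0% for delGLN3 at t15 and 0.348% in the cold, 0.0498%, 0.201% and 0.0342% for delHAP4 at t15, in the cold and in recovery, 0%, 0.0496% and 0.099% for delHMO1, 0.148% and 1.21% for delSWI4 in the cold and in recovery, and 0.0162%, 0.0818% and 0.296% for delZAP1 at t15, in the cold and in recovery. An unadjusted p below 0.05 was found for YAP1 and CAD1 in the cold and for YAP1, YAP5 and YAP6 in recovery in delHMO1, for YAP1 in the cold in delSWI4 and for YAP5 in recovery in delZAP1. YAP5 in recovery differed from wild type by −1.57 in delHMO1 (SE 0.49, adjusted p = 0.22) and by −1.45 in delZAP1 (SE 0.45, adjusted p = 0.18). The YAP5 flask means in recovery were −1.32 ± 0.25 in delHMO1 (SD, n = 4) and 0.25 ± 0.80 in wild type (SD, n = 5), and the arrays of the strains overlapped at t90. CAD1 in the cold differed by 1.28 in delHMO1 (SE 0.37, adjusted p = 0.36) and YAP6 in recovery by −1.03 (SE 0.34, adjusted p = 0.25).

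A last comparison, added after the data were seen, set the recovery-minus-cold difference of each deletion strain against that of wild type. It passed for 2 of 39 tests. For YAP1 in delHMO1 the contrast was 1.89 (SE 0.43, 95% interval 1.01 to 2.76, adjusted p = 0.017), with 1 of 7 members and 1.49% of all rows called. The flask means were 0.44 ± 0.46 in recovery and 0.45 ± 0.43 in the cold in delHMO1 (SD, n = 4), against −0.53 ± 0.58 and 1.35 ± 0.51 in wild type (n = 5). All 5 wild-type flasks were lower in recovery, by 1.54 to 2.37, while 2 of 4 delHMO1 flasks were higher. The call was lost without wild-type flask 2 (1.88, adjusted p = 0.051), without delHMO1 flask 3 (1.66, adjusted p = 0.084) and with no flask block (1.91, adjusted p = 0.12). It stayed without the 2 delHMO1 arrays of the other phase (1.78, adjusted p = 0.034).

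For YAP5 in delZAP1 the contrast was −2.01 (SE 0.48, 95% interval −2.99 to −1.04, adjusted p = 0.019), with 1 of 7 members and 1.65% of rows called. The YAP5 flask means were −1.20 ± 0.39 in recovery and 0.62 ± 0.85 in the cold in delZAP1 (SD, n = 4), against 0.25 ± 0.80 and 0.14 ± 1.06 in wild type (n = 5). All 4 delZAP1 flasks were lower in recovery and 3 of 5 wild-type flasks were higher. The call was lost without wild-type flask 1 or 3, without delZAP1 flask 3, 4 or 5 (−1.75 to −1.93, adjusted p from 0.057 to 0.12), with no flask block (−2.07, adjusted p = 0.096) and on the Ontario chips (−1.73, adjusted p = 0.11).

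Elsewhere no member passed this contrast in limma, with 0.0817% of rows called in delCIN5, 1.67% in delGLN3, 1.06% in delHAP4 and 3.86% in delSWI4. YAP1 in delCIN5 gave 1.80 (SE 0.49, 95% interval 0.79 to 2.80, adjusted p = 0.15) and passed without delCIN5 flask 1 (2.35, adjusted p = 0.034). CIN5 in delGLN3 gave 2.58 (SE 0.72, adjusted p = 0.052). It passed in a single fit of all strains (2.59, adjusted p = 0.011), with a dye term (2.66, adjusted p = 0.038), on complete rows (2.58, adjusted p = 0.048), without wild-type flask 0 (2.91, adjusted p = 0.042) and without delGLN3 flask 1 (3.07, adjusted p = 0.012). YAP5 in delHAP4 gave −1.82 (SE 0.52, adjusted p = 0.071) and passed in the single fit (−1.82, adjusted p = 0.037), without wild-type flask 2 (−2.23, adjusted p = 0.026) and without its 1 array of the other phase (−2.10, adjusted p = 0.023). In delSWI4 YAP5 gave −1.20 (SE 0.48, adjusted p = 0.16) and passed without wild-type flask 2 (−1.60, adjusted p = 0.037).

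**Figure D4:**
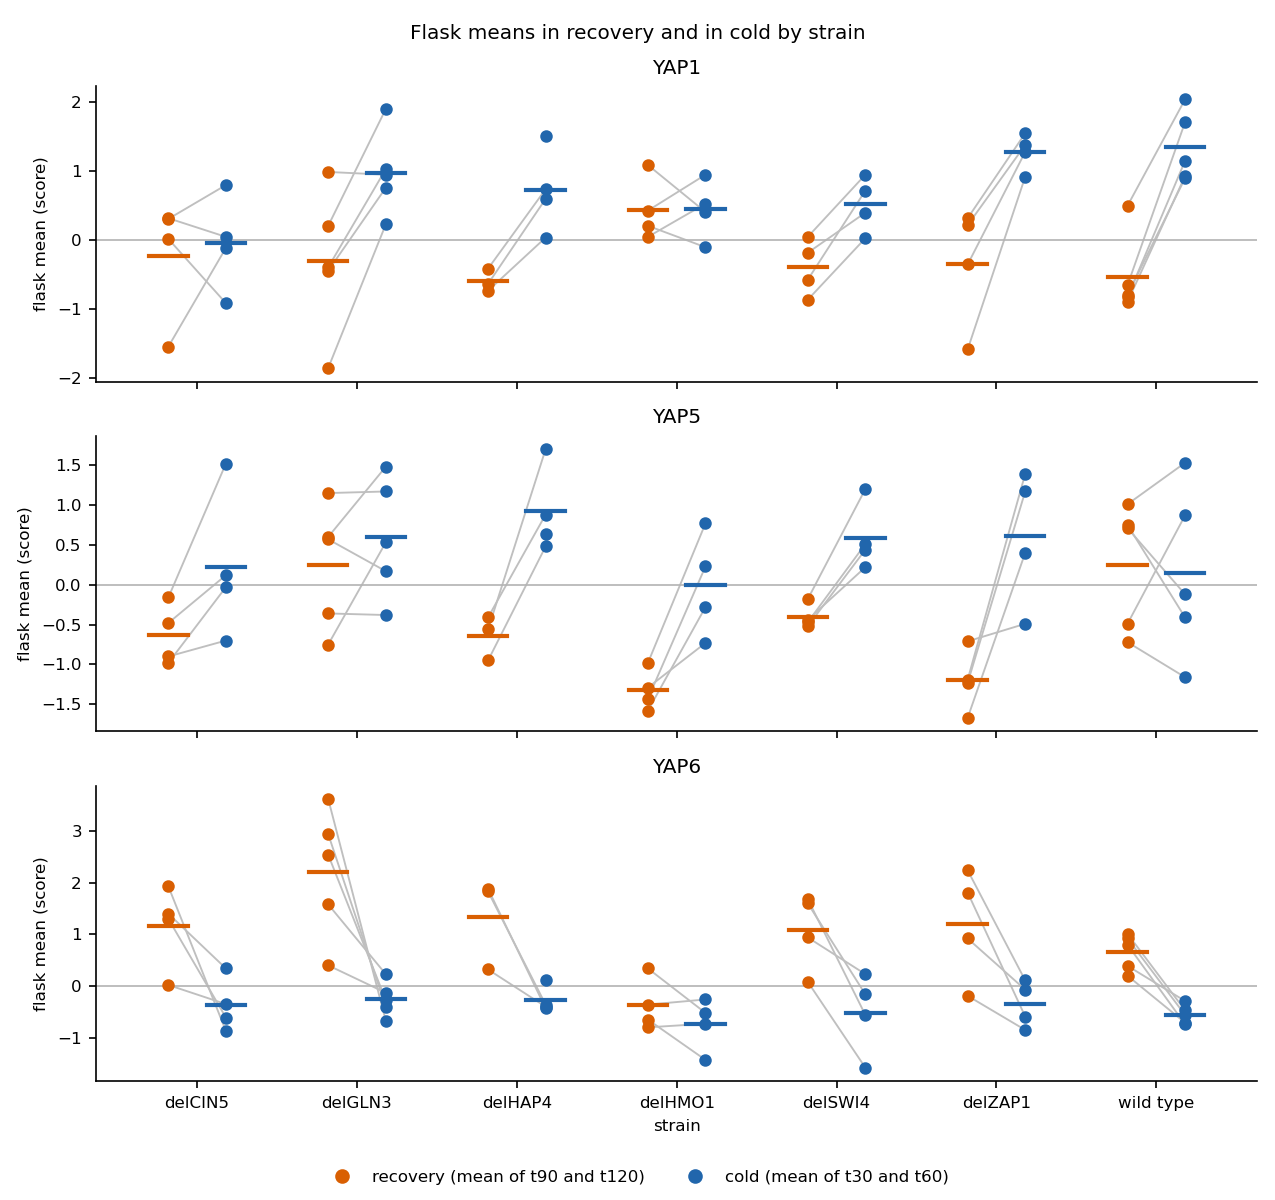
Flask means of YAP1, YAP5 and YAP6 in score units (y axis) in recovery (orange, mean of t90 and t120) and in the cold (blue, mean of t30 and t60) for each strain (x axis, wild type at the right), with lines joining the values of a flask and bars at the strain means. YAP1 is lower in recovery in all 5 wild-type flasks but in 2 of 4 flasks of delCIN5 and of delHMO1, YAP5 is lower in all 4 flasks of delZAP1, and YAP6 is higher in recovery in every flask outside delHMO1.

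YAP7 differed between flasks more than between times in delHMO1. Flask 2 scored between 1.16 and 1.85 at all 5 times and flask 4 between −2.45 and −1.83, and both kept their sign throughout. The mean in delHMO1 was −0.66 ± 1.67 in recovery and −0.45 ± 1.35 in the cold (SD of flask means, n = 4), the widest spread of YAP7 in any strain. All arrays of a flask share its t0 sample.

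Over the 34 means of strain and time, some members varied together and some in opposition. YAP1 correlated with YAP6 at r = −0.64, with CAD1 at −0.63 and with YAP3 at −0.61, CAD1 with YAP5 at −0.75 and with YAP7 at −0.62, and YAP3 with YAP6 at 0.63. CIN5 correlated with YAP7 at 0.62 and with its relative YAP6 at −0.08 (29 means, without delCIN5). These means share the t0 samples within a flask and the arrays between genes, and the values are descriptions.

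Among the 5922 rows with a value in every group, those most like YAP1 were GIS4 (r = 0.82), its neighbour in the gene table, STD1 (0.81) and MRH4 (0.81). Those most like CAD1 were SLM4 (0.87), CPR4 (0.83) and QRI7 (0.82). For YAP6 they were OSH7 (0.88), ERP5 (0.87) and PIL1 (0.87), for YAP5 SIR2 (0.83), HEM3 (0.80) and PRP11 (0.78), for YAP3 GLO1 (0.77), COS7 (0.75) and SGN1 (0.75), and for YAP7 PUB1 (0.69), RTG1 (0.68) and LEU9 (0.67). CIN5, over 29 groups and 5926 rows, was most like NMD4 (0.72), HEM2 (0.70) and ICP55 (0.70). No member was among the 3 nearest rows of another.

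Genes known as targets of the factors did not move as one group. Of 19 Yap1 targets, 2 rose and 3 fell in wild type at t60, against 15.7% of all rows called, with a median of −0.20 against 0.06 over all rows. ATR1, a drug and boron exporter, rose (2.43, SE 0.45, adjusted p = 0.00045), as did the glutathione transferase GTT2 (1.61, SE 0.42, adjusted p = 0.0086). The glutathione peroxidase GPX2 fell (−1.74, SE 0.33, adjusted p = 0.00076), as did the peroxiredoxin TSA1 (−1.51, SE 0.46, adjusted p = 0.028). From cold to recovery in wild type 7 of the 19 rose and 2 fell, against 37.4% of all rows called (median 0.78 against −0.03), among them the peroxiredoxins AHP1 (2.62, SE 0.36) and TSA1 (2.55, SE 0.39) and the mitochondrial peroxidase CCP1 (2.04, SE 0.28) upward and ATR1 (−2.19, SE 0.36) downward. YAP1 itself fell in this difference.

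In delCIN5 1 of the 19 Yap1 targets rose in the cold (mean of t30 and t60), against 15.1% of all rows called. It was the oxidoreductase OYE2 (1.61, SE 0.33, adjusted p = 0.0025). From cold to recovery 6 rose and 1 fell, against 28.1% of all rows called (median 0.85 against 0.02). AHP1 (2.95, SE 0.46), TSA1 (1.60, SE 0.40) and CCP1 (1.58, SE 0.35) were among the 6. Against wild type no gene on this or the other lists passed in delCIN5 in limma at t15, in the cold or in recovery. Of all rows 0.0163%, 0% and 0.0649% were called in these comparisons, so the lack of calls is not particular to the lists.

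Of the 4 targets listed for Cin5 and Cad1, the nitroreductase-like FRM2 rose in wild type at t15, t30 and t60 (1.29, 2.21 and 3.25, adjusted p = 0.02, 4.7e-05 and 1.4e-06), as did the aldo-keto reductase GCY1 (2.18, 1.62 and 1.75, adjusted p = 0.00065, 0.0027 and 0.003). Of all rows 10.8%, 15.1% and 15.7% were called at these times. FRM2 and GCY1 also rose in the cold in delCIN5, with 15.1% of all rows called, FRM2 by 1.19 (SE 0.37, adjusted p = 0.036) and GCY1 by 1.14 (SE 0.29, adjusted p = 0.012). In recovery against cold in wild type FRM2 (−2.49, SE 0.29) and GCY1 (−1.24, SE 0.32) fell, and the glycerol phosphatase GPP2 (1.60, SE 0.34) and DCS2 (1.56, SE 0.41), a stress-induced regulator of mRNA decapping products, rose. Of all rows 37.4% were called in that difference. In delGLN3, the strain with the highest CIN5 in recovery, FRM2 in the cold was below wild type (−2.52, SE 0.38, adjusted p = 0.00021, 0.348% of all rows called). No gene of the list passed there against wild type in recovery, with 0.848% of all rows called. Against t0, GCY1 (1.49, SE 0.27, adjusted p = 0.006) and DCS2 (2.43, SE 0.61, adjusted p = 0.029) rose in recovery in delGLN3, while FRM2 and GPP2 did not pass. DCS2 also rose against t0 in recovery in delHAP4 (2.40), delSWI4 (3.35) and delZAP1 (2.53), but did not pass in delCIN5. In delSWI4 in recovery GCY1 (1.96, SE 0.40, adjusted p = 0.0041) and DCS2 (2.25, SE 0.52, adjusted p = 0.015) were above wild type, with 1.21% of all rows called.

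Of 5 Yap5 targets, the metallothionein genes CUP1-1 and CUP1-2 fell in wild type at t15 (−2.47, adjusted p = 0.012, and −1.91, adjusted p = 0.029) and t30 (−1.80, adjusted p = 0.034, and −1.84, adjusted p = 0.015). Of all rows 10.8% were called at t15, 15.1% at t30 and 15.7% at t60. CUP1-1 and CUP1-2 are near-identical copies whose probes may share signal, so their values are uncertain as separate measurements. TYW1, an iron-sulphur enzyme of transfer RNA modification, rose at t60 (1.63, SE 0.52, adjusted p = 0.032). The glutaredoxin GRX4 rose in the cold in delCIN5 (1.39, SE 0.25, adjusted p = 0.00081) and in delSWI4 (1.00, SE 0.24, adjusted p = 0.0034). Of all rows 15.1% and 29.4% were called there. In wild type the GRX4 estimates had the same sign but did not pass, at 0.81 for t30 (SE 0.39, adjusted p = 0.17) and 0.88 for t60 (SE 0.43, adjusted p = 0.17). In the cold delCIN5 did not pass against the other deletion strains for GRX4 (0.67, SE 0.29, adjusted p = 0.69).

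Among 9 regulators and partners of the factors, 1 rose in wild type at t60, against 15.7% of all rows called. It was SKN7, which acts with Yap1 on peroxide genes (1.38, SE 0.44, adjusted p = 0.033). SKN7 also fell from cold to recovery in wild type (−1.74, SE 0.36, adjusted p = 0.00043), while HYR1, the peroxidase that passes oxidation on to Yap1, rose (2.36, SE 0.34, adjusted p = 4.3e-06). In that difference 37.4% of all rows were called. The stress activator MSN4 rose in the cold in delSWI4 (2.53, SE 0.29, adjusted p = 3.3e-06), delZAP1 (2.04, SE 0.45, adjusted p = 0.0024) and delHAP4 (1.65, SE 0.37, adjusted p = 0.0025). In wild type its estimates were 0.98 at t30 (SE 0.54, adjusted p = 0.23) and 1.68 at t60 (SE 0.59, adjusted p = 0.054), and neither passed. Of 8 other bZIP genes, CST6 rose in wild type at t15, t30 and t60 (1.37, 1.59 and 1.49, adjusted p = 0.017, 0.0021 and 0.007), and the other 7 passed at none of these times. Of all rows 10.8%, 15.1% and 15.7% were called at t15, t30 and t60.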

How the data were processed

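RNA of shifted and t0 samples was hybridised in 2 dyes, with the shifted sample in Cy3 on 65 arrays and in Cy5 on 72. For each open reading frame the table deposited by the authors holds 1 score per array, made with limma per the submitters' processing notes, version not given. Background correction, within-array normalization and spot filters are not given in the sources used here. The scaled median absolute deviation was 0.997 to 1.003 on every array and the median −0.051 to 0.085, from the values. All columns were mapped to samples (0 unmapped), and 3.95% of values were missing. Of 6178 rows, 5674 matched a locus tag of the RefSeq gene table.

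Each row was tested on the score in limma (limma 3.58.1, R 4.3.3): 1 mean per strain and time, flask as a random block (duplicateCorrelation), standard errors from the arrays measured for that gene, moderated variances, Benjamini-Hochberg adjustment over all rows tested, two-sided, adjusted p below 0.05 and at least 2 flasks per group. On rows without missing values this equals the standard limma fit. Recovery minus cold between strains was added after the data were seen. Arrays of the same flask and phase deviated together from their group means (median r 0.40 over all rows, 53 of 54 array pairs above 0.1, against −0.13 for different flasks of a strain), and a flask is 1 replicate. Subtracting the group mean pulls the value for different flasks below 0, so it is no independent baseline. Within a group of flasks the p-values measure only the spread between cultures of 1 strain.

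Before use the procedure was checked with simulated scores of known size. In the comparisons checked, a change of 1 unit was found in 6 to 24 of 100 genes and a change of 2 units in 66 to 87 of 100. A difference of about 1 unit that did not pass may therefore have been missed. The genes and lists were chosen with earlier results of these data known. Named are the 7 members, the 3 rows most like each, and from each list up to 4 genes per comparison with the smallest adjusted p among those called. Tables and figures used Python 3.11.15, numpy 2.4.6, pandas 2.3.3 and matplotlib 3.10.9. Alternatives were no flask block, a dye term, centred or scaled arrays, complete rows, robust moderation, a single fit of all strains, Ontario chips, an adjusted p below 0.01, leaving out each flask in turn, a slide coating term and a block by flask number. Omission of arrays of the other phase and sign changes for a delHMO1 flask were taken over from earlier work on these data.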

Additional observations from a re-analysis of the deposited data

Results flagged for a closer look

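In 17 of 207 groups of 4 or 5 arrays, 1 array stood apart from the rest by Dixon's criterion, which chance alone meets in about 1 of 20 groups. YAP1 scored 1.87 in delHAP4 at t30 in flask 1 (others 0.64 to 0.73) and 1.88 in wild type at t30 in flask 0 (others 0.90 to 1.02). CAD1 scored −1.60 in delCIN5 at t60 in flask 4 (others −0.94 to −0.90), 0.94 in delGLN3 at t60 in flask 2 (others −1.48 to −1.31) and −1.33 in wild type at t15 in flask 3 (others −0.64 to −0.53). The delGLN3 array is one of the 4 that resembled the other phase.

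YAP3 scored −1.52 in delHMO1 at t120 in flask 3 (others −0.11 to −0.05), 1.03 in delSWI4 at t90 in flask 4 (others 0.09 to 0.25), −1.41 in delZAP1 at t120 in flask 2 (others 0.70 to 0.98) and 0.13 in wild type at t30 in flask 2 (others −0.43 to −0.36). CIN5 scored 1.05 in delHAP4 at t30 in flask 1 (others 1.94 to 2.00). YAP5 scored 1.78 in delHAP4 at t15 in flask 2 (others 0.08 to 0.29).

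YAP6 at t15 scored −0.26 in delGLN3 flask 3 (others 0.43 to 0.56), 0.58 in delZAP1 flask 3 (others −0.80 to −0.69) and −1.24 in wild-type flask 2 (others −0.52 to −0.38). YAP7 scored 2.64 in delGLN3 at t120 in flask 2 (others 0.01 to 0.09), 0.85 in delHAP4 at t60 in flask 3 (others 0.18 to 0.26) and 0.20 in wild type at t120 in flask 2 (others −1.09 to −0.72).

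A tested difference between strains was found for CIN5 in recovery, 3.11 higher in delGLN3 than in wild type, and for the recovery-minus-cold difference of YAP1 in delHMO1 (1.89 above wild type) and of YAP5 in delZAP1 (−2.01 against wild type). The causes of these differences were not tested.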

How the results depend on the processing

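No called result changed sign under the alternatives run, and among the values of single genes under an alternative 565 kept their side of the threshold, 111 lost the call and 35 gained one. The 7 wild-type calls against t0 became 1 on Ontario chips, 4 with complete rows and 3 to 6 without 1 flask (3 without flask 2), and YAP1 could not be tested with complete rows. The 18 calls of deletion strains against t0 became 6 at an adjusted p below 0.01 and 13 to 18 without 1 flask. The 21 recovery-minus-cold calls ranged from 18 to 23 without 1 flask. The single call against wild type became 0 on Ontario chips, 3 with the signs of delHMO1 flask 2 turned and 0 to 2 without 1 flask (0 without delGLN3 flask 5, 2 without delGLN3 flask 2). The 2 recovery-minus-cold calls against wild type became 4 in a single fit of all strains, 1 on Ontario chips, 0 at an adjusted p below 0.01 and 1 to 3 without 1 flask (1 without wild-type flask 1 or 3, delHMO1 flask 3 or delZAP1 flask 3, 4 or 5). delCIN5 against the other deletion strains gave 0 to 0. With no replicate block the counts were 7, 19, 19, 1, 0 and 0, in the order wild type, deletion strains, recovery minus cold, against wild type, delCIN5 against other deletions and recovery minus cold against wild type. With a replicate block by flask number 5 tests passed against wild type, but the labels tie no flask number to a shared day across strains, and same-numbered flasks of different strains did not deviate together (median r 0.01, 14 of 81 above 0.1, against −0.00 for other numbers). Spot brightness was not used here. Precision is set by the number of flasks, and the cause of each change was not tested. Flasks of 1 day may be less independent than n implies.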
